A study of Homo sapiens with 4 samples.

Results

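The expression of 40 genes of the cellular response to low oxygen and of glycolysis was followed in MDA-MB-231, a widely used human cell line of triple-negative breast cancer, which had been kept for 24 h with RB-BC or with the vehicle DMSO. RB-BC is a derivative of ribociclib, an inhibitor of the cell cycle kinases CDK4 and CDK6. The 40 members were taken from a given list of symbols, and all 40 were found among the 20263 human Ensembl genes of the deposited count table. They comprise 24 glycolytic enzymes and transporters and 16 other genes, which are subunits of the hypoxia-inducible factors (HIF), their regulators, and HIF targets outside glycolysis. Expression was profiled by RNA sequencing in 2 libraries per group, DMSO 1 and DMSO 2 against RB-BC 1 and RB-BC 2. Neither the dose of RB-BC nor the oxygen tension is given in the sources used here. The compound appears as RB-BC in the labels and as Rib_CA in the treatment protocol, and whether these names mean one substance is not stated.

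Oxygen is sensed through the HIF alpha subunits, HIF1A and EPAS1 (HIF-2 alpha). In oxygen, prolyl hydroxylases of the EGLN family mark these proteins, the VHL ubiquitin ligase recognises the mark, and the proteins are degraded; without oxygen they accumulate, pair with ARNT and bind a short core element near their target genes. The pathway is therefore set largely at the level of protein, and a transcript level of HIF1A does not report HIF activity. Glycolysis converts glucose to pyruvate in the cytosol, and many tumour lines, MDA-MB-231 among them, are known for high glucose uptake and lactate release. Several glycolytic genes are HIF targets, and they often exist as families of isozymes encoded by separate genes.

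Library totals ran from 34774542 to 42786422 counts. Mitochondrially encoded transcripts took 21.7% of the counts in DMSO 2 and between 8.68% and 10.3% in the other 3 libraries. The DMSO pair was less alike than the RB-BC pair (chi-square per degree of freedom over genes 246 against 38.8). These values were computed from counts against library totals with mitochondrially encoded genes included. The unequal mitochondrial shares of the DMSO libraries therefore enter them. Levels are given as CPM, counts scaled to library size with TMM (trimmed mean of M values) factors, and changes as log2 fold changes of RB-BC over DMSO with the standard error (SE). A gene is said to have risen or fallen where edgeR's quasi-likelihood test gave a Benjamini-Hochberg adjusted p under 0.05 over all tested genes. The SE is the absolute log2 fold change divided by the square root of that test's F statistic, so it restates the test. The labelled cell type was checked on 9 markers of mesenchymal triple-negative lines, whose summed level was 9535 to 12093 CPM. Among these VIM, the mesenchymal filament vimentin, had 3303 to 5465 CPM, ZEB1 rose (0.81) and CAV1 fell by 1.10. Together with VIM, MSN (2302 to 3097 CPM) and AXL (1201 to 1782 CPM) made up most of the sum. S100A4, also listed as present, was low at 5.26 to 8.67 CPM. Of 11 luminal, HER2 and epithelial markers, summing to 492 to 681 CPM, KRT18 (176 to 304 CPM), KRT19 (173 to 361 CPM) and ERBB2 (56.3 to 71.5 CPM) made up most of the sum. GRHL2 had no count in any library, ESR1 had at most 0.611 CPM, and ESRP1 rose (1.11) from 3.13 CPM. CDH1 had at most 0.0531 CPM and PGR at most 1.73 CPM. GATA3 (7.89 to 21.4 CPM), EPCAM (5.49 to 9.34 CPM) and FOXA1 (6.77 to 7.95 CPM) were detected in all libraries. Of 12 markers of other cell types, CD3E, INS, MYH6 and DCN had no count in any library, and PTPRC, a leukocyte marker, had at most 1.10 CPM. The 12 summed to 153 and 335 CPM in DMSO and 476 and 508 CPM in RB-BC, nearly all of it CD68, which encodes a lysosomal membrane protein (log2 fold change 1.02 ± 0.36, edgeR adjusted p = 0.107). Its part in the results was not tested.

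Most of the members that changed were higher in RB-BC. In the 39 members that were tested, 11 rose (28.2%) and 2 fell (5.13%). Over all 13744 tested genes 16.1% were called, 8.58% as higher and 7.53% as lower in RB-BC. Among the 24 glycolytic enzymes and transporters 4 rose, namely SLC2A3, ALDOC, ENO2 and PGK1, and 1 fell, the hexokinase gene HK2. In the class of other HIF targets and regulators 7 of 15 tested members rose, namely VEGFA, NDRG1, EPAS1, CA12, VHL, P4HA2 and BNIP3, and 1 fell, the prolyl hydroxylase gene EGLN3. The median log2 fold change was 0.16 in the glycolytic class and 0.24 in the other class, against −0.0016 over all tested genes. The median of the other class was 0.55 with no low-count filter, where CA9 was also tested, and ran from 0.25 to 0.57 with 1 library left out. These shares and medians are descriptions, and the difference between the classes was not tested. The counts of called members in both classes depended on which library was left out. So did the share of all tested genes called, and these shifts are not read as behaviour of the classes. With library totals as the only scaling 790 of 1205 called genes were higher, against 1179 of 2214 with TMM. The RB-BC libraries lay above both DMSO libraries for 12 of 24 glycolytic members and for 10 of 15 others, where 33.1% of all tested genes did so. They lay below both for 6 and 2 members, where 32.1% of all tested genes did so. RNA came from whole cultures, so that a change in the mixture of cells and a change in RNA per cell cannot be told apart.

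**Figure D1:**
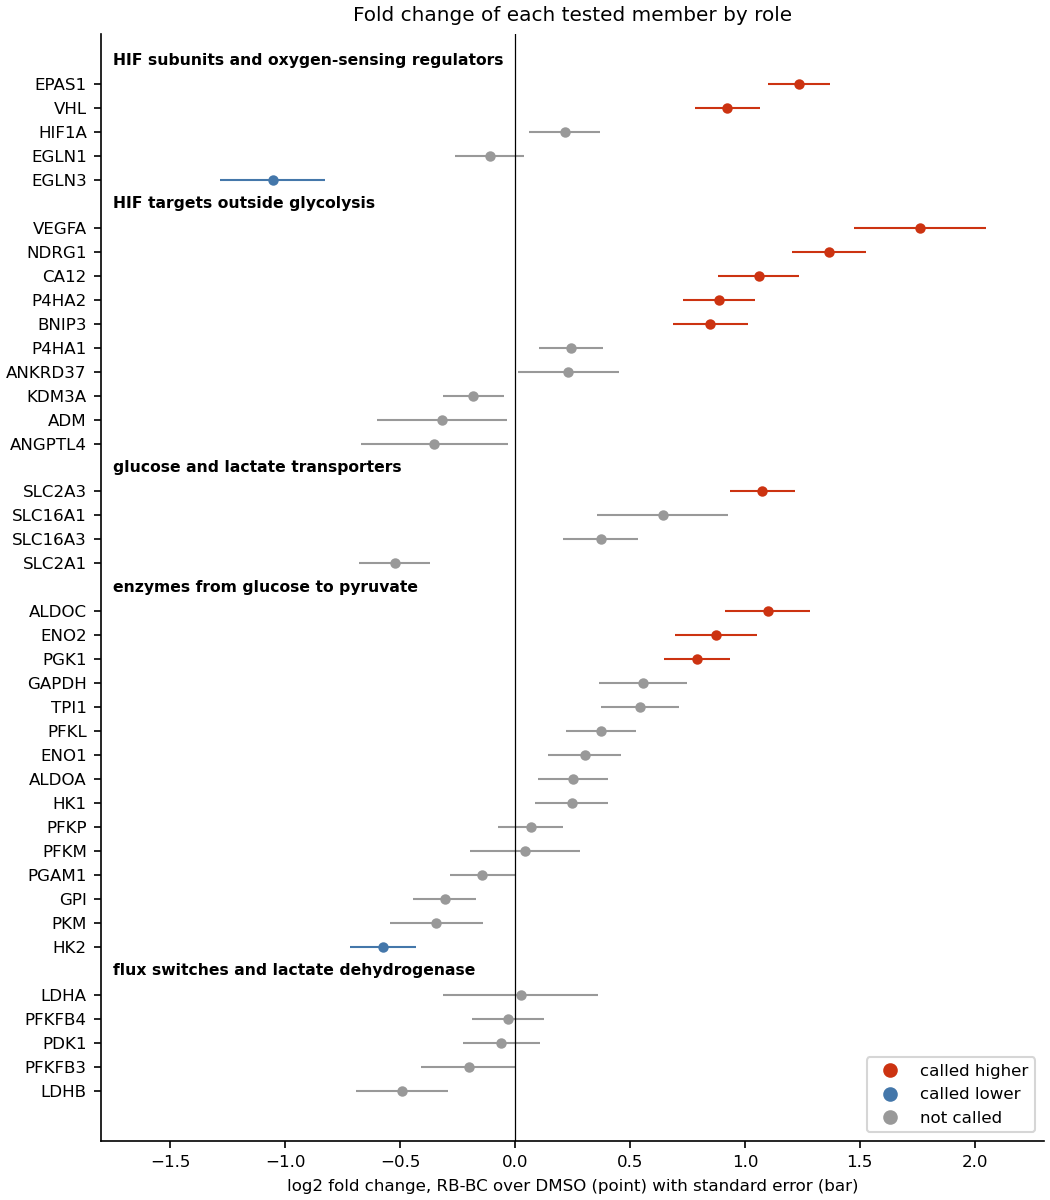
Log2 fold change of RB-BC over DMSO (horizontal axis) for the 39 tested members, grouped by role, with points for the estimate, bars for its SE, red for genes called higher, blue for genes called lower and grey for the rest. VEGFA has the largest rise (1.76) and EGLN3 the largest fall (−1.05). Of the 5 flux switch and lactate dehydrogenase genes 0 were called, where 16.1% of all tested genes were, and nothing is read from this count.

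The promoter sequences of members that rose and of others that did not are shown because HIF binds a defined core there. The core was searched as ACGTG or GCGTG, which on the opposite strand read CACGT and CACGC, in the 250 bases before each annotated start (RefSeq, GRCh38.p14). The palindrome CACGTG, which is also the E-box of MYC and USF factors, holds the core on both strands and counts as 2 matches. A match was present in 43.2% of all 35116 promoter windows and CACGTG in 6.34%, so a single match is common. Promoter windows were found for 35 members (not for VEGFA, NDRG1, SLC2A3, VHL and SLC16A1), of which 29 (82.9%) had a match in at least 1 window, against 47.4% of all 27305 genes. Since many genes have several windows, the same was counted for genes with exactly 1, where 17 of 23 members (73.9%) and 42.2% of 22114 genes had a match. Both backgrounds include genes that were not tested here, and neither was matched for base composition. The differences from them are therefore not read as a result about the members. Of the 11 members that rose 7 had a window, and 6 of these 7 had a match; of the 2 that fell 1 did, and of the 25 that were tested and not called 21 did. A match is a run of letters and does not show binding. The windows of 5 members follow, each written 5′ to 3′ along its gene, with matches in capitals. The first 3 belong to genes that rose and hold several matches, the fourth to a gene that rose and holds none, and the last to a gene that holds matches and was not called.
BNIP3, chr10:131981924-131982173, minus strand: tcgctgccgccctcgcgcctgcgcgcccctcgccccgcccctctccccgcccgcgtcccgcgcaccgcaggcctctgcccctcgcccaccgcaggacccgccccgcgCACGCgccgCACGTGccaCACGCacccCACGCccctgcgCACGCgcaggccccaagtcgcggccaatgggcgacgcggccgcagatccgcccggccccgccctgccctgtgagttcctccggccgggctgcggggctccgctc
PGK1, chrX:78103998-78104247, plus strand: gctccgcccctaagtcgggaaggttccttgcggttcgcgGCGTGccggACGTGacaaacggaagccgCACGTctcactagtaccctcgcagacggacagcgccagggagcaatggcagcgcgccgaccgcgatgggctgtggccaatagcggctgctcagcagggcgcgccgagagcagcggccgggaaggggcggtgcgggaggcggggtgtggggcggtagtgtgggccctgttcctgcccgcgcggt
ALDOC, chr17:28576896-28577145, minus strand: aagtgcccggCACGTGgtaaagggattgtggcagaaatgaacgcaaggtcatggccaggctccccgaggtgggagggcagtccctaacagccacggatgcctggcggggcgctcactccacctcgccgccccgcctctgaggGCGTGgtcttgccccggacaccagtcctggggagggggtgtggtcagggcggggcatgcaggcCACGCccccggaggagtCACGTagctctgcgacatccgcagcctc
P4HA2, chr5:132227092-132227341, minus strand: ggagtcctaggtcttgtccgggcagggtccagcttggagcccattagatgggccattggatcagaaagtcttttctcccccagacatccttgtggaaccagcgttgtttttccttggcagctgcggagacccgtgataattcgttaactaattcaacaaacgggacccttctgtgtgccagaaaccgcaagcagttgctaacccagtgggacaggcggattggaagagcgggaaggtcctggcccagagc
ANKRD37, chr4:185396591-185396840, plus strand: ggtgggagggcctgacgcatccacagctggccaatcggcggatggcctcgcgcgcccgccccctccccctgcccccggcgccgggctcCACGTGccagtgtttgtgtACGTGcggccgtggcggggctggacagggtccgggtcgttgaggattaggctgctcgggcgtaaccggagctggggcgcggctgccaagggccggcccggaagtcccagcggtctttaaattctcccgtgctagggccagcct
The BNIP3 window held 6 matches packed between −143 and −104 from the start, with CACGTG among them. In PGK1 the 3 matches began at −211, −202 and −183, and in ALDOC the 5 matches were spread from −240 to −28. ANKRD37 had 3 matches, at −162, −161 and −143, the first pair being CACGTG. Windows with 3 or more matches made up 7.76% of all windows. Many matches were not confined to genes that rose. HK2, which fell and is not printed, had windows with 3 and 6 matches, the latter with CACGTG. LDHA, which was not called, had windows with 5 matches, CACGTG among them, and with 1.

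Of the HIF alpha subunits, EPAS1 rose and HIF1A did not pass. EPAS1 (ENSG00000116016) had 53.5 and 55.9 CPM in DMSO and 127 and 130 CPM in RB-BC. The groups were far apart and the replicates close, and the log2 fold change was 1.24 ± 0.14 (SE, n = 2 libraries per group, edgeR adjusted p = 0.00853). HIF1A (ENSG00000100644) had 610, 682, 763 and 737 CPM in the order DMSO 1, DMSO 2, RB-BC 1 and RB-BC 2. Its RB-BC libraries were the higher ones, and the difference did not pass (0.22 ± 0.15, edgeR adjusted p = 0.357).

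Among the regulators that end HIF signalling, VHL rose and EGLN3 fell. VHL (ENSG00000134086), the substrate receptor of the ubiquitin ligase, went from 64.3 and 71.1 CPM to 131 and 126 CPM (0.92 ± 0.14, edgeR adjusted p = 0.0150). EGLN3 (ENSG00000129521), a prolyl hydroxylase that is itself a HIF target, had 6.75 and 8.41 CPM in DMSO and 3.50 and 3.79 CPM in RB-BC, a fall on 254, 282, 152 and 166 counts (−1.05 ± 0.23, edgeR adjusted p = 0.0323). Scaled by library totals alone, EGLN3 no longer passed (−0.99, adjusted p = 0.0602 by edgeR's test). EGLN1, the main prolyl hydroxylase of most cells, had 79.6 and 68.6 CPM in DMSO and 65.9 and 71.4 CPM in RB-BC, and the groups overlapped (−0.11 ± 0.15, edgeR adjusted p = 0.627).

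Of the secreted and membrane HIF targets, VEGFA and CA12 rose. VEGFA (ENSG00000112715), the angiogenic growth factor, had the largest rise of all members, from 40.4 and 43.5 CPM in DMSO to 183 CPM in RB-BC 1 and 102 CPM in RB-BC 2. Both RB-BC libraries were well above DMSO, and they differed from each other by more than the DMSO pair did (1.76 ± 0.29, edgeR adjusted p = 0.0171). The value was 1.28 without RB-BC 1 and 2.12 without RB-BC 2. CA12 (ENSG00000074410), a carbonic anhydrase of the cell surface that helps to buffer acid, went from 13.8 and 11.0 CPM to 25.2 and 26.5 CPM (1.06 ± 0.18, edgeR adjusted p = 0.0180). Its relative CA9, a widely used hypoxia marker, was close to absent, with 6, 0, 8 and 14 counts in the 4 libraries, and was not tested. ADM, which encodes the vasodilator adrenomedullin, had 30.7, 23.1, 16.2 and 27.0 CPM with overlapping groups (−0.32 ± 0.28). ANGPTL4, an inhibitor of lipoprotein lipase, had 3.11, 5.07, 3.57 and 2.83 CPM, also overlapping (−0.35 ± 0.32).

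Of the intracellular HIF targets, NDRG1, BNIP3 and P4HA2 rose. NDRG1 (ENSG00000104419), a stress-responsive gene linked to differentiation, had 354 and 409 CPM in DMSO and 993 and 974 CPM in RB-BC, the second largest rise (1.37 ± 0.16, edgeR adjusted p = 0.00939). BNIP3 (ENSG00000176171), which encodes a mitochondrial protein that promotes mitophagy and whose promoter holds the densest matches printed above, went from 234 and 284 CPM to 474 and 461 CPM (0.85 ± 0.16, edgeR adjusted p = 0.0241). P4HA2 (ENSG00000072682), a subunit of the enzyme that hydroxylates collagen prolines, rose from 35.1 and 42.7 CPM to 73.5 and 70.5 CPM (0.89 ± 0.16, edgeR adjusted p = 0.0199), and its printed window has no match. Its paralogue P4HA1 had 98.2 and 87.5 CPM in DMSO and 109 and 111 CPM in RB-BC, without overlap and without passing (0.24 ± 0.14). KDM3A, a histone H3 lysine demethylase, was at −0.18 ± 0.13 with RB-BC below DMSO in both libraries, and ANKRD37, an ankyrin repeat protein, at 0.23 ± 0.22.

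**Figure D2:**
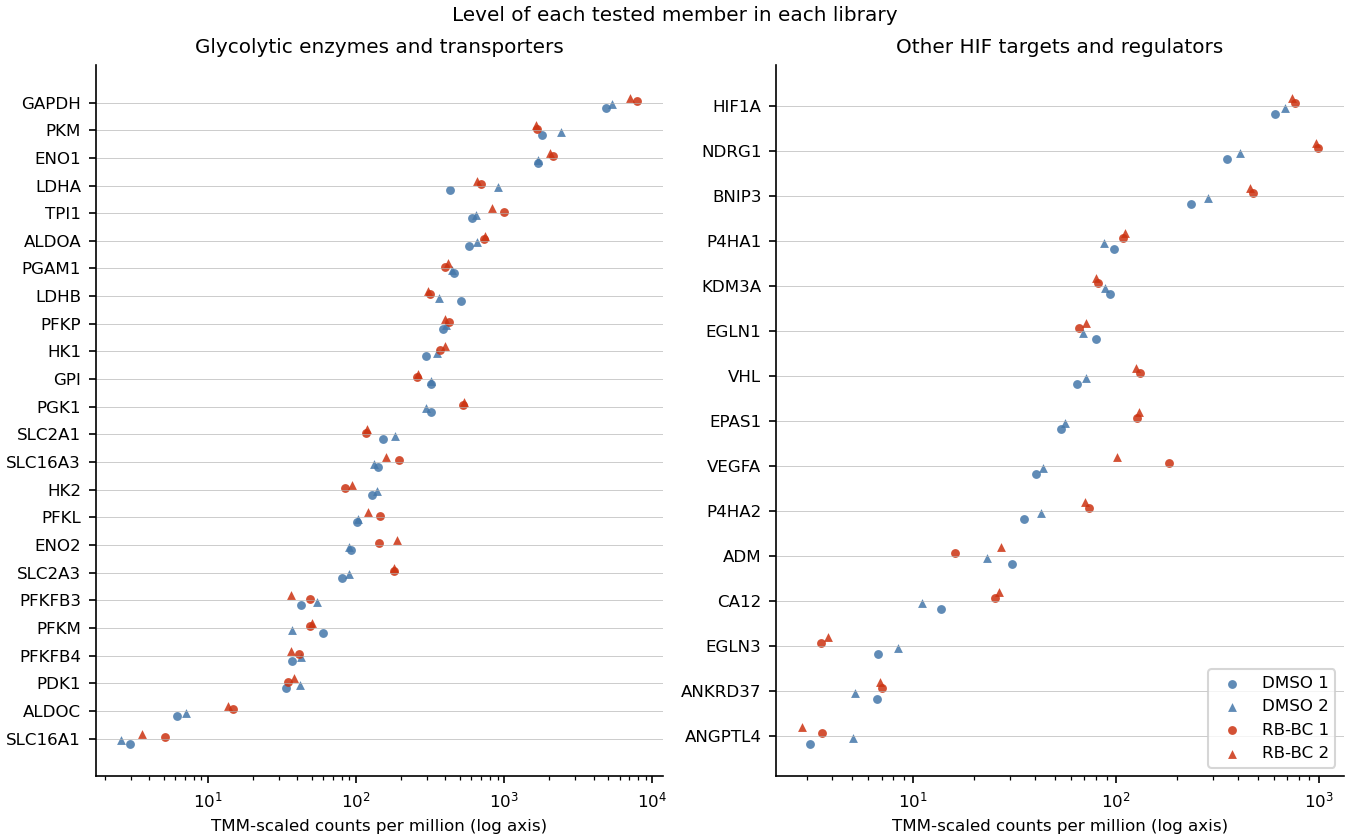
TMM-scaled CPM on a log axis for each tested member in each library, with glycolytic enzymes and transporters on the left and other HIF targets and regulators on the right; blue is DMSO, red is RB-BC, circles are replicate 1 and triangles replicate 2. Red and blue are clearly apart for NDRG1, EPAS1, VHL and SLC2A3, while LDHA has its DMSO libraries at 431 and 902 CPM on either side of RB-BC.

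At the entry of glucose, SLC2A3 rose and SLC2A1 did not pass. SLC2A3 (ENSG00000059804), which encodes the high-affinity transporter GLUT3, had 80.6 and 89.1 CPM in DMSO and 179 CPM in both RB-BC libraries. That gap was many times the difference between replicates (1.08 ± 0.14, edgeR adjusted p = 0.0113). Reads of SLC2A3 may be shared with the near-identical SLC2A14, to which the table assigns 43, 56, 97 and 88 counts (0.60 ± 0.33), so the value is uncertain to that extent. SLC2A1, which encodes the common transporter GLUT1, had 153 and 184 CPM in DMSO and 116 and 118 CPM in RB-BC. The groups did not overlap and the change did not pass (−0.52 ± 0.15, edgeR adjusted p = 0.0690), although it did with DESeq2 (adjusted p = 0.0212) and once DMSO 1 was removed (−0.65, edgeR adjusted p = 0.0216). At the exit, the lactate exporter gene SLC16A3 (MCT4) was at 140 and 132 CPM with DMSO, and RB-BC 1 and RB-BC 2 were at 195 and 158 CPM (0.37 ± 0.16, edgeR adjusted p = 0.161). SLC16A1 (MCT1) was low throughout, at 2.60 to 5.14 CPM (0.64 ± 0.28).

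The first steps inside the cell showed 1 fall. HK2 (ENSG00000159399), the inducible hexokinase that traps glucose as its phosphate, had 127 and 137 CPM in DMSO and 83.6 and 94.2 CPM in RB-BC (−0.57 ± 0.15, adjusted p = 0.0471 by edgeR). HK2 missed the threshold of edgeR's test when only library totals were used for scaling (adjusted p = 0.125), when low-count genes were kept (adjusted p = 0.0546) and when the replicate number was a block (adjusted p = 0.0800). HK1, the constitutive hexokinase, was at 297, 352, 370 and 399 CPM (0.25 ± 0.16). GPI, the isomerase of the next step, had 319 and 322 CPM in DMSO and 259 and 260 CPM in RB-BC, with very close replicates, yet the change did not pass (−0.31 ± 0.14, edgeR adjusted p = 0.170). The phosphofructokinase genes, whose enzyme commits sugar to glycolysis, were at 0.37 ± 0.15 for PFKL, 0.04 ± 0.24 for PFKM and 0.07 ± 0.14 for PFKP. PFKFB3 and PFKFB4, which make and remove the activator fructose 2,6-bisphosphate, were at −0.20 ± 0.21 and −0.03 ± 0.16, and both had overlapping groups.

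In the lower part of the pathway 3 genes rose, and 2 of these were minor isozymes. PGK1 (ENSG00000102144), which makes the first ATP of the pathway, went from 320 and 296 CPM to 527 and 538 CPM (0.79 ± 0.14, edgeR adjusted p = 0.0218). ALDOC (ENSG00000109107), the brain-type aldolase, had 6.19 and 7.04 CPM in DMSO and 14.7 and 13.6 CPM in RB-BC (1.10 ± 0.18, adjusted p = 0.0183 by edgeR). ENO2 (ENSG00000111674), the neuron-type enolase, had 92.5 and 89.2 CPM in DMSO and 143 and 190 CPM in RB-BC, where the replicates were further apart (0.87 ± 0.18, edgeR adjusted p = 0.0288). The major isozymes of the same steps, ALDOA and ENO1, were at 0.25 ± 0.15 and 0.30 ± 0.16 and did not pass. GAPDH, often used as a reference gene, had 4840 and 5325 CPM in DMSO and 7924 and 7014 CPM in RB-BC. That difference did not pass (0.56 ± 0.19, edgeR adjusted p = 0.0981). It passed with DESeq2 (adjusted p = 0.00760) and, by edgeR's test, once mitochondrially encoded genes (adjusted p = 0.0434) or DMSO 2 (adjusted p = 0.0254) were removed. TPI1, the triose phosphate isomerase, had 601, 646, 990 and 827 CPM (0.54 ± 0.17, edgeR adjusted p = 0.0766) and passed with DESeq2 (adjusted p = 0.0155) and once DMSO 2 was removed (edgeR adjusted p = 0.0455). PGAM1, the phosphoglycerate mutase, was at −0.14 ± 0.14; its intronless copy PGAM4 was assigned 181 to 195 counts. GAPDH and other abundant enzymes of this pathway have processed pseudogenes, and how shared reads were counted is not known.

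At pyruvate and lactate none of the members passed. The 5 flux switch and lactate dehydrogenase genes were PFKFB3, PFKFB4, PDK1, LDHA and LDHB. Of these 0 had an adjusted or unadjusted p under 0.05 by edgeR's test and 0 passed with DESeq2. Over all tested genes 16.1% were called by edgeR's test, so this count of 0 is not read as a result about the 5 genes. On the log2 scale, LDHA had the widest gap between the DMSO libraries among the 39 tested members (1.06). LDHA, which encodes the lactate dehydrogenase subunit favouring lactate formation, had 431 CPM in DMSO 1 and 902 CPM in DMSO 2, on either side of the 698 and 658 CPM of RB-BC (0.02 ± 0.34, edgeR adjusted p = 0.965). Its direction was set by the DMSO library used: leaving out DMSO 2 gave 0.65 (adjusted p = 0.0205 by edgeR), and leaving out DMSO 1 gave −0.41 (adjusted p = 0.0586 by edgeR). LDHB, the other subunit, had 512 and 361 CPM in DMSO and 317 and 303 CPM in RB-BC (−0.49 ± 0.20, adjusted p = 0.143 by edgeR). Its change was −0.72 when DMSO 2 was left out (edgeR adjusted p = 0.0151) and −0.22 when DMSO 1 was. PKM, the pyruvate kinase, had 1786 and 2404 CPM in DMSO and 1668 and 1637 CPM in RB-BC (−0.34 ± 0.20), and passed without DMSO 1 (−0.54, edgeR adjusted p = 0.0279). PDK1, a kinase that holds pyruvate back from mitochondria, had 33.7 to 41.9 CPM with overlapping groups (−0.06 ± 0.17). DMSO 2 is also the library with the large mitochondrial share, and the part of that share in these differences was not tested.

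Ratios between members of a gene family were formed for 12 pairs from counts per kilobase of exon (GENCODE release 29 gene models, which may not be those the counts rest on), and the pairs were drawn up after the values had been seen. The ratio of SLC2A3 to SLC2A1 was 0.405 and 0.371 in DMSO and 1.18 and 1.16 in RB-BC, a 3.02-fold difference in which the order of the transporters per kilobase turned over. EPAS1 to HIF1A went from 0.0619 and 0.0579 to 0.118 and 0.125, so that HIF1A stayed the more abundant per kilobase in all 4 libraries. The ratio of ALDOC to ALDOA was 1.80-fold higher in RB-BC, that of P4HA2 to P4HA1 1.57-fold and that of ENO2 to ENO1 1.47-fold. HK2 to HK1 was 1.77-fold lower, at 0.445 and 0.405 in DMSO and 0.234 and 0.245 in RB-BC, and EGLN3 to EGLN1 was 1.92-fold lower. In all, 7 of 12 ratios were higher and 2 lower in RB-BC without overlap. Of all tested genes, taken singly, 33.1% lay higher and 32.1% lower without overlap. Those shares are of single genes and not of ratios, and the order within a pair sets its direction. Nothing is read from this count. The groups overlapped for PFKM to PFKP, PFKFB3 to PFKFB4 and LDHB to LDHA. The ratio of LDHB to LDHA was 2.47 in DMSO 1, 0.833 in DMSO 2, and 0.947 and 0.958 in RB-BC. With 2 libraries per group the smallest two-sided p of an exact permutation test is 0.333, so no single ratio was tested.

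**Figure D3:**
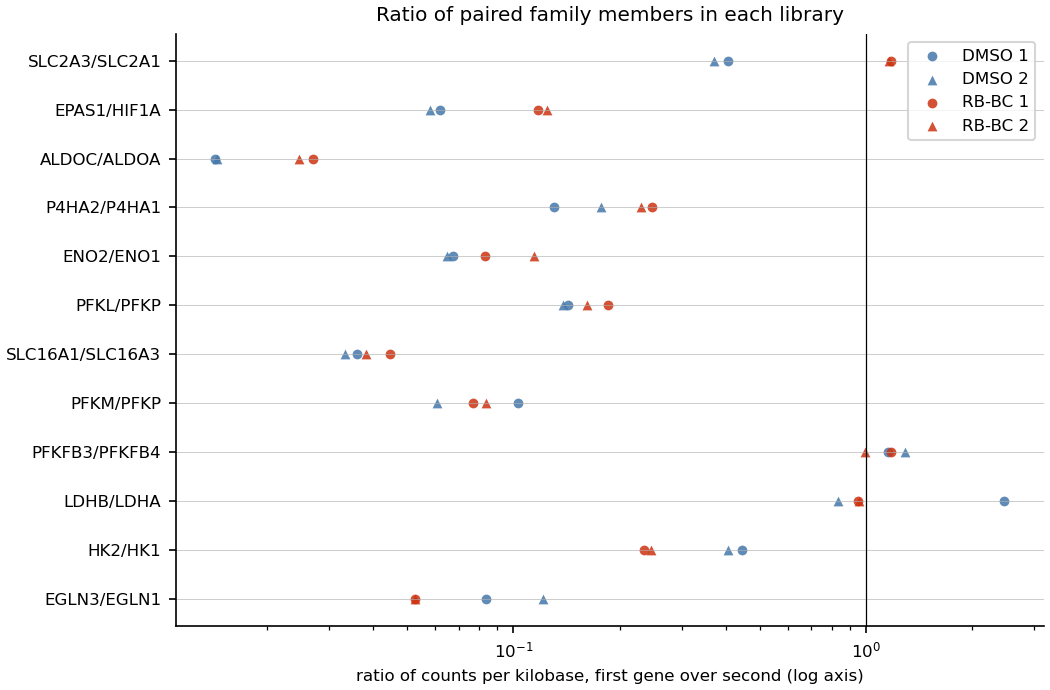
Ratio of counts per kilobase of the first gene over the second (log axis) for 12 pairs of family members in each library, DMSO in blue and RB-BC in red, circles for replicate 1 and triangles for replicate 2; the vertical line marks equal values. SLC2A3 over SLC2A1 moves from 0.405 and 0.371 across the line to 1.18 and 1.16, and LDHB over LDHA has 1 DMSO library at 2.47 away from the other 3.

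The calls depended on which library was left out. All 13 members that were called kept their direction in each of the 4 fits with 1 library left out. The groups of these members did not overlap, so apart from rescaling this outcome was fixed beforehand and adds nothing to the calls. Without DMSO 1, where 23.1% of all tested genes were called, and without DMSO 2, where 26% were, all 13 passed. Without RB-BC 1, where only 1.47% of all tested genes passed, 0 of the 13 did by edgeR's test, with adjusted p between 0.0573 for VEGFA and 0.390 for HK2, while 12 of them had an unadjusted p under 0.05. Without RB-BC 2, where 3.23% passed, EPAS1, NDRG1 and VEGFA were called. In the fits without an RB-BC library the spread comes from the DMSO pair, the less alike of the pairs, and the lone RB-BC library is assumed to vary like it.

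**Figure D4:**
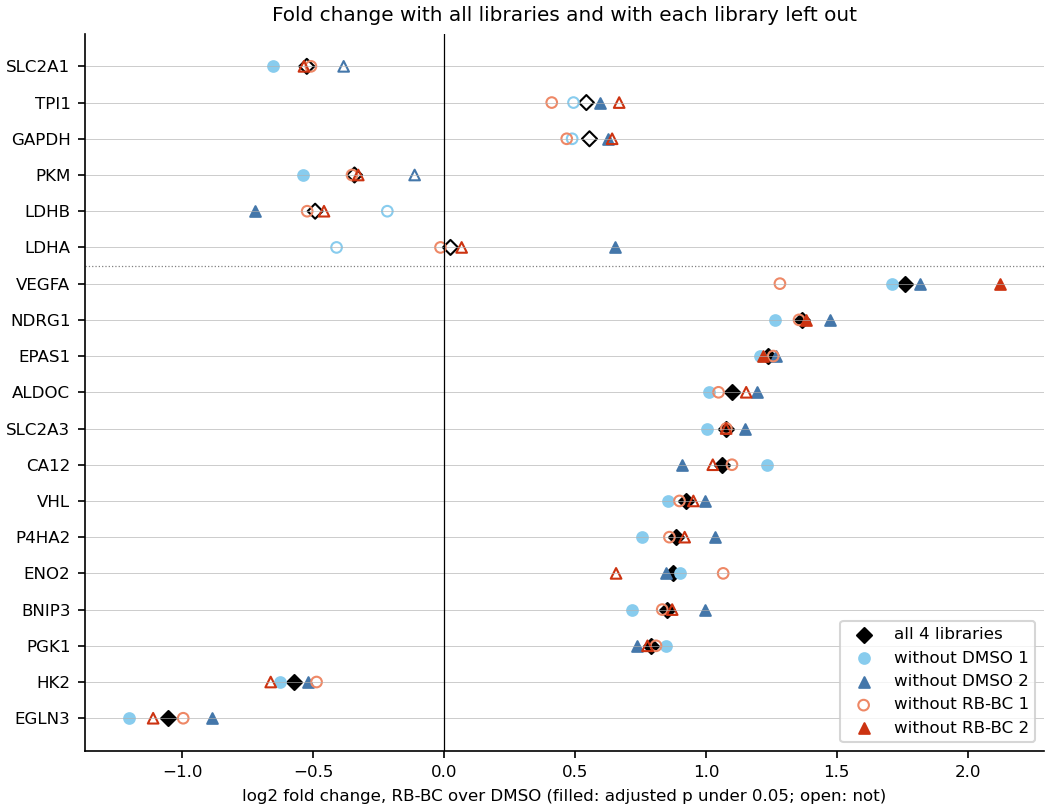
Log2 fold change (horizontal axis) of the 13 called members, below the dotted line, and of 6 others in the fit with all 4 libraries (black) and with each library left out; filled symbols have an adjusted p under 0.05. The estimates of the called members stay on one side of 0 in every fit, as groups that do not overlap require apart from rescaling. LDHA lies at 0.65 without DMSO 2 and at −0.41 without DMSO 1.

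Genes of the same pathways outside the 40 members were read from lists of textbook members. Of 47 tested genes of the wider HIF pathway 8 rose (17.0%) and 0 fell by edgeR's test, where 8.58% of all tested genes rose and 7.53% fell, at a median of 0.23; of those with lower values 2 had an unadjusted p under 0.05 and 2 passed with DESeq2. STC1, the secreted glycoprotein stanniocalcin-1, rose most, from 34.7 and 52.1 CPM to 334 and 285 CPM (2.83 ± 0.24). MXI1, a MYC antagonist, had 35.9 and 37.9 CPM in DMSO and 107 and 109 CPM in RB-BC (1.55 ± 0.14), and DDIT4, an inhibitor of mTORC1, rose by 2.24 and the collagen crosslinking enzyme gene LOX by 1.67. Also among those that rose, and named here after their values were seen, were RORA (1.98), EFNA1 (1.31) and ELOB (0.69).

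Other genes of glycolysis and of pyruvate fate rose in 5 cases of 36 (13.9%) and fell in 2 (5.56%), at a median of −0.040. The shares over all tested genes were 8.58% and 7.53%, and these counts are not read as a result about the list. PCK2, the mitochondrial enzyme that makes phosphoenolpyruvate, went from 26.4 and 21.6 CPM to 60.8 and 54.0 CPM (1.26 ± 0.17). TIGAR, which lowers fructose 2,6-bisphosphate, fell from 16.3 and 15.2 CPM to 7.91 and 7.57 CPM (−1.02 ± 0.17). LDHD, a D-lactate dehydrogenase, rose by 1.85 at a low level of 0.683 CPM in DMSO. Of the kinase genes related to PDK1, PDK3 rose (1.00 ± 0.23, edgeR adjusted p = 0.0378) at 2.50 to 5.14 CPM. PDK4 (1.13 ± 0.31, edgeR adjusted p = 0.0590) and PDK2 (−0.097 ± 0.26) did not pass. These kinase genes were named after their values were seen. SLC2A4, the insulin-responsive transporter GLUT4, had 1 count in DMSO and 32 in RB-BC, a ratio of 26.1 with an exact 95% interval of 4.36 to 1063 that covers counting error only. Of 11 tested genes of the pentose phosphate pathway only PGLS, the lactonase of its second step, rose (1.08 ± 0.20), a share of 9.09% near the 8.58% of all tested genes, and the median was 0.024. Of 16 glucose-responsive and hexosamine genes 3 rose (18.8%) and 1 fell (6.25%), against the same 8.58% and 7.53%. TXNIP, which is induced by glucose and restrains its uptake, had 159 and 196 CPM in DMSO and 514 and 520 CPM in RB-BC (1.54 ± 0.17), GFPT1 and GFPT2, the entry enzymes of hexosamine synthesis, rose by 1.37 and 0.77, and UAP1, a later enzyme of that route, fell by 0.70.

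**Figure D5:**
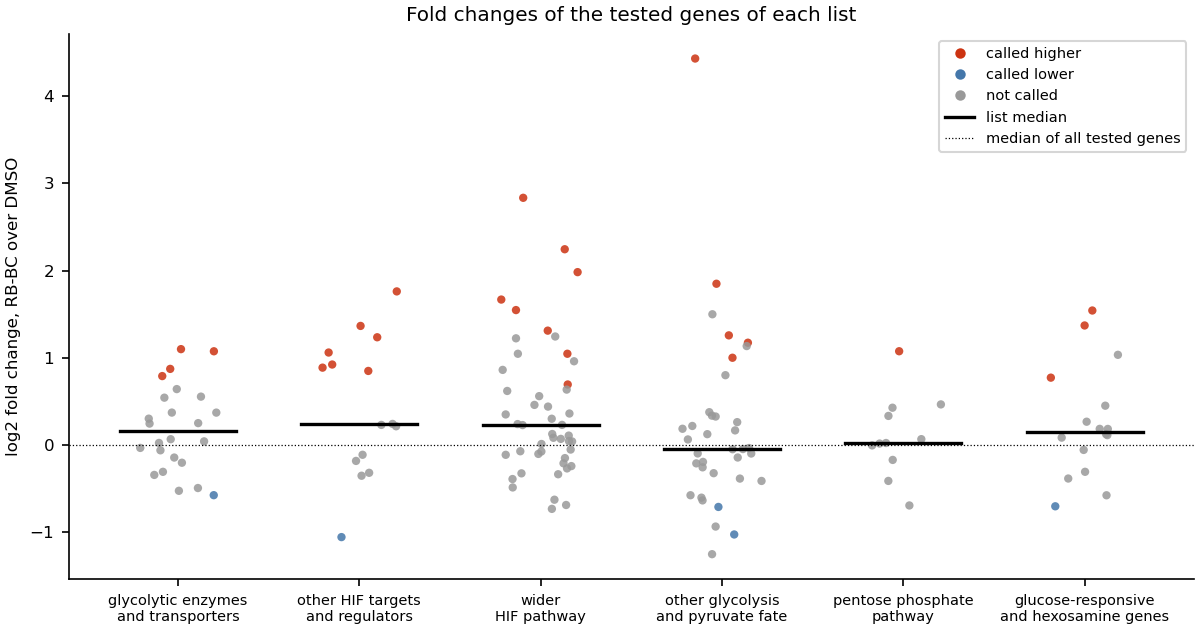
Log2 fold change of RB-BC over DMSO (vertical axis) for the tested genes of the 2 member classes and of 4 related lists, with red for called higher, blue for called lower, grey for not called, black bars for list medians and a dotted line for the median of all tested genes. The list medians lie between −0.040 and 0.24; the highest single point is SLC2A4, which rests on 1 count in DMSO.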

How the data were processed

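Per the labels' protocols, column-purified total RNA from cells treated for 24 h entered an mRNA library kit. The deposited values are whole-number read counts per Ensembl gene, and nothing in the values shows a normalization. No aligner, counter, strand setting or annotation is named in the sources used here, so reads of a gene and of an antisense partner cannot be told apart. GRCm38 and mm10, both mouse builds, are named per the submitters' processing notes, whereas all 20263 identifiers are human; no coordinates of counted genes are given. A gene-name table gave symbols for 20148 identifiers and GENCODE release 29 for a further 76, and 39 had none.

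Groups and replicate numbers come from the sample titles. Nothing says that replicates were separate cultures, so a p-value covers the spread between libraries alone, and that spread may be technical. Within-group pairs differed beyond sampling noise (chi-square over degrees of freedom 246 for DMSO and 38.8 for RB-BC). Counts were filtered with filterByExpr (minimum count 10, minimum total 15) and TMM-scaled, and RB-BC was compared with DMSO by edgeR 4.0.16 in R 4.3.3 (quasi-likelihood, two-sided, Benjamini-Hochberg over 13744 genes, threshold 0.05). The procedure was also run on counts simulated from its own fitted means and dispersions, with the same dispersion in both groups. That run does not show how it performs at the unequal spread of the DMSO and RB-BC pairs. Alternatives were RLE size factors, scaling by library totals, low-count genes kept, only genes averaging 50 or more counts, limma-voom 3.58.1, DESeq2 1.42.0, the replicate number as a block, mitochondrially encoded genes removed, and each library left out. The named genes were all 40 members and, per related list, the called genes of smallest adjusted p, at most 4 (if no gene passed, 2). Members, lists and tests were chosen with earlier results of these data known.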

Additional observations from a re-analysis of the deposited data

How the results depend on the processing

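The 13 called members kept their direction under all 12 alternatives. For the fits with 1 library left out this was fixed beforehand, apart from rescaling, because the groups of these members did not overlap. All 13 stayed called with RLE size factors, a mean of at least 50 counts, limma-voom, DESeq2 and mitochondrially encoded genes removed. With library totals alone 1205 genes were called in place of 2214 (790 of them higher, against 1179), 0 glycolytic members and 0 other members were called lower, and the uncalled PFKFB4 and PDK1 turned to 0.026 and 0.0052. Glycolytic members called lower, 1 with all libraries, numbered 0 with no low-count filter, 0 with the replicate block and 2 with DESeq2. With no low-count filter CA9 entered the other class as a 16th member and its median became 0.55. With 1 library left out, genes called ran from 205 to 3648, glycolytic members called higher from 0 to 7 and lower from 0 to 3, other members called higher from 0 to 7 and lower from 0 to 1, and the class medians from 0.14 to 0.32 and from 0.25 to 0.57, the last again with CA9 tested in 3 of these fits. Uncalled members that changed sign in these fits were LDHA (−0.41 to 0.65), PFKM (−0.26 to 0.43), ADM (−0.73 to 0.0084), ANGPTL4 (−0.66 to 0.042), EGLN1 (−0.21 to 7.02e-04), PDK1 (−0.21 to 0.11) and PFKFB4 (−0.13 to 0.068). Same-numbered libraries did not deviate together (correlation −0.027 over 13744 genes). That value rests on a single difference per gene in each group, so it cannot decide whether same-numbered libraries were paired. The replicate block gave 2114 calls and changed no member's call but that of HK2. Few counts limit CA9 and SLC2A4, and 2 libraries per group limit every value.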
